A study of Homo sapiens with 16 samples.

Results

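In the human osteosarcoma line U2OS, a set of 143 genes peaked at a low dose of the compounds T4 and T5 and fell back at the highest dose. The genes were picked by their own values on the log2(FPKM + 1) scale, where FPKM is the number of fragments scaled by transcript length and library size. A gene entered if 2 µM stood at least 0.6 above DMSO, and 20 µM at least 1 below 2 µM, with both compounds. Only genes whose FPKM averaged at least 1 over the 16 libraries were considered, 10600 in all, and 143 of them were kept. The rise alone was met by 492 genes and the fall alone by 1071 genes, and 21 genes had the mirror image, a drop at 2 µM with a return at 20 µM.

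Every library came from U2OS cells taken 6 h after treatment, with 1 library of the solvent control DMSO and 1 for each of 0.5, 2, 5, 10 and 20 µM of CPT, T4 or T5. The series describes T4 and T5, known here by code names, as modulators of alternative polyadenylation. CPT is the usual abbreviation of camptothecin, an inhibitor of DNA topoisomerase I, but the labels do not spell it out. No condition had a replicate, and nothing in the labels says that libraries came from separate cultures. The p-values therefore set a fitted change against the distance of single libraries from the fitted line or dose block. That distance may be technical or a real departure from the fitted shape, such as a peak, and these cannot be told apart.

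Alternative polyadenylation is the choice between sites at which a nascent transcript is cleaved and polyadenylated, and the cut is made by a large complex coupled to RNA polymerase II. The output of a gene also depends on the release of paused polymerase by the elongation kinase P-TEFb, which is held inactive by HEXIM1 bound to the 7SK RNA. Many genes that respond within hours to signals or stress are short, have few introns and give unstable mRNAs, so that their level tracks transcription closely. The members held short genes with few exons together with parts of the transcription and RNA-processing machinery itself, and mRNA stability was not measured.

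The largest rises at 2 µM, given as a description because they chose the members, included those of GPER1, C3orf58, HEXIM1, TOB1, RGS2, RBM15, SHISA2, BAMBI, ATF3, FZD7, BTG1, CNTF and SOX4. HEXIM1 stood 2.36 log2 units above DMSO with 2 µM T4 and 2.72 with T5, and 20 µM lay 2.61 and 2.91 below those levels. Over all members the median rise was 1.07 with T4 and 1.12 with T5, and the median fall 1.56 and 1.44 log2 units. Close to the thresholds, SERTAD1 was just inside with a fall of 1.01 with T4, and MRPL44 with a rise of 0.61 with T5, as were SNHG20, ATOH7 and TOPORS. HSPH1 was just outside with a fall of 0.997 with T4 and C12orf45 with a rise of 0.599 with T5, as were HOXB7, MAP1S and TWISTNB. MIR663B, a short microRNA gene, met the rule through values of 669.7 and 443 FPKM at 2 µM T4 and T5 against a listing at 0 in DMSO and at 20 µM. Such a 0 can be a failed estimate, and no result is given for MIR663B alone.

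The bases just upstream of the start of transcription are shown for 6 members of different roles that rose together, because this stretch holds the core promoter where it has a TATA box. They come from RefSeq promoters (GRCh38.p14), run 5′ to 3′ on the gene's strand and end at the base before the annotated start, and capitals mark TATAAA. The windows are chr17:45148375-45148474 (+) for HEXIM1, chr12:92145847-92145946 (-) for BTG1, chr11:62805441-62805540 (-) for NXF1, chr6:19837270-19837369 (+) for ID4, chr1:28328940-28329039 (+) for MED18 and chr11:57657662-57657761 (+) for CLP1.
HEXIM1: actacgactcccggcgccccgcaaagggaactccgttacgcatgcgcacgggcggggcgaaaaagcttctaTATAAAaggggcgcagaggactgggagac
BTG1: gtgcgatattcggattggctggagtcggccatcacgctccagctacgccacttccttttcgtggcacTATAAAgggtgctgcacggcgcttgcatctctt
NXF1: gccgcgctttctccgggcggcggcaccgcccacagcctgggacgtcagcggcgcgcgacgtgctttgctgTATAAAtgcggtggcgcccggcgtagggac
ID4: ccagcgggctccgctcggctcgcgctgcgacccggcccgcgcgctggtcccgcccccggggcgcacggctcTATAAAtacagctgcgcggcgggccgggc
MED18: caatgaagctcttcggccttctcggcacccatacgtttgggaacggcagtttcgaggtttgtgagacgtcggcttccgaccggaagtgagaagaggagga
CLP1: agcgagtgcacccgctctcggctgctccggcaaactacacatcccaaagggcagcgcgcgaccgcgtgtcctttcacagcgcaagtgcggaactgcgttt

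The motif began at base -29 in HEXIM1 and ID4, -33 in BTG1 and -30 in NXF1, counting the base before the start as -1. These letters were not found in the windows of MED18 and CLP1. The genes shown are examples, and the motif is more frequent among them than among the members with a single listed start. Of 110 members matched by symbol, 81 had a single listed start, and 11 of these held TATAAA on either strand in the 100 bases: ATOH7, BTG1, FAM46A, H2AFX, HEXIM1, ID4, LBH, MKNK2, MT1X, NR0B1 and NXF1. Of all 35116 RefSeq promoters, 4.99% held it in the same window. Since the 81 genes are 56.6% of the members, below the 80% needed for a comparison, the shares are not compared.

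With both compounds, the members' median climbed from DMSO to 2 µM and then sank, while that of all genes tested drifted down. Relative to DMSO it was 0.58, 1.07, 0.74, 0.15 and -0.44 log2 units at 0.5, 2, 5, 10 and 20 µM T4. For T5 it was 0.86, 1.12, 0.86, 0.45 and -0.30 log2 units at the same doses. The 0.5, 5 and 10 µM libraries did not enter the rule, although the DMSO library they are set against did. Of the 143 members 142 were above DMSO at 0.5 µM of either compound, against 47.1% of all genes with T4 and 39.2% with T5. At 5 µM 142 were above it with T4 and 137 with T5 (34.1% and 33.5% of all genes), and at 10 µM 86 and 108 (37.9% and 35.9% of all genes). With CPT the median rose to 0.92 log2 units at 2 µM and then stayed at 0.72, 0.63 and 0.60 up to 20 µM. At 20 µM CPT 108 members were above DMSO, against 43.4% of all genes. The rule itself required low values at 20 µM T4 and T5, so the 26 and 45 members above DMSO there are a description and are not compared with CPT.

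**Figure D1:**
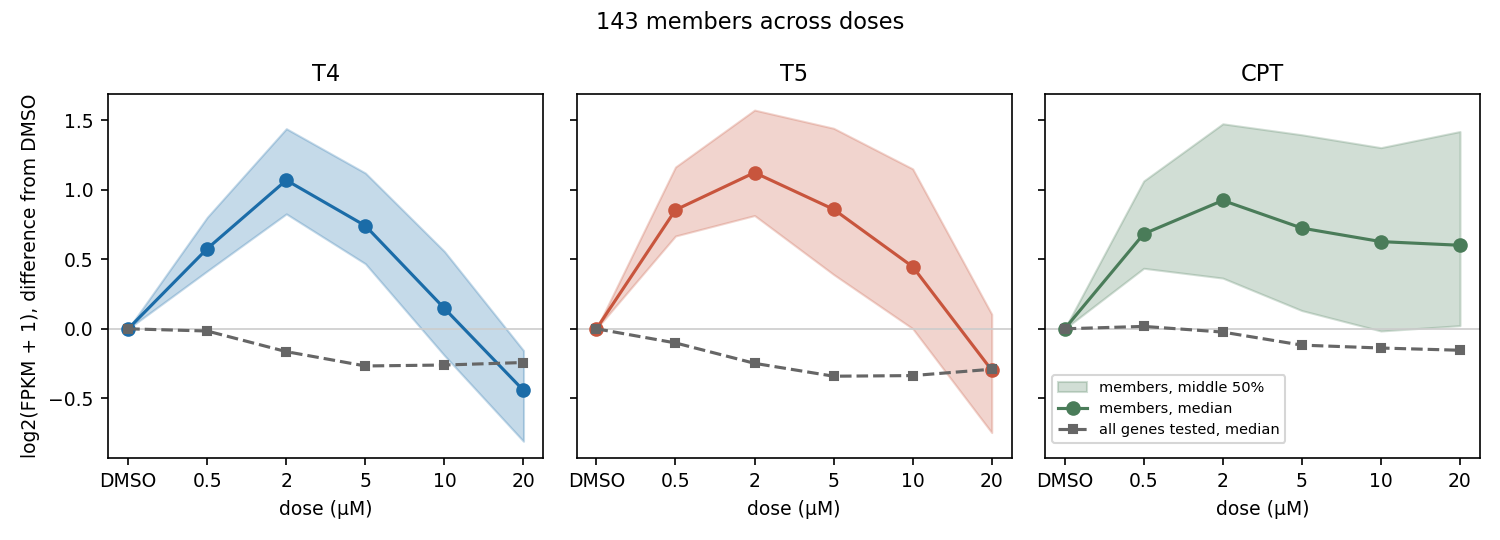
Median difference from DMSO of the 143 members (circles and line, with the middle 50% shaded) and of all 10600 genes tested (dashed) at each dose, on the log2(FPKM + 1) scale. The T4 and T5 medians peak at 2 µM and are below DMSO at 20 µM, whereas the CPT median is still 0.60 at 20 µM; the DMSO, 2 and 20 µM libraries of T4 and T5 chose the genes.

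Facts of the libraries bear on all that follows. FPKM removes total depth, but the spacing of low values put the depth relative to DMSO between 0.639 (5 µM T5) and 0.997 (0.5 µM T5). The library median of log2(FPKM + 1) over all genes tested, minus that of DMSO, fell with dose. It went from -0.05 at 0.5 µM T4 to -0.63 at 20 µM T5, and to -0.41 at 10 µM CPT. This is a difference of medians, not the median of gene differences given above. A fitted change includes this shift unless libraries are centred. Of 10 bone and osteosarcoma markers 5 passed the filter and together held 893 to 1535 FPKM, but TWIST1, COL1A2, SP7 and BGLAP stayed below 0.5 FPKM in every library. Markers of blood and endothelium summed to at most 1.90 FPKM. Of the epithelial markers, CDH1, KRT5 and KRT20 stayed below 0.5 FPKM, and the list summed to 5.50 to 20.6 FPKM. The 3 that passed the filter rose with T4/T5 dose, as did 26.5% of all genes. The part of depth and of these markers in the results was not tested. In bulk samples, fewer cells of a type and less RNA per cell cannot be told apart.

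Between 5 and 10 µM, libraries outside the rule, nearly every member went down with both compounds. The 5 µM value exceeded the 10 µM value with T4 and with T5 in 138 of 143 members, against 33.5% of all genes tested. It did so by at least 0.5 log2 units with both in 28 members, against 2.08% of all genes, and no member rose by that much with both (0.0849% of all genes). The median change was -0.66 with T4 and -0.39 with T5, where all genes had medians of 0.05 and 0.01. The drop was not particular to the members, since the 928 genes that met the fall and not the rise had a median fitted step of -0.49 over both compounds, against -0.52 in the members and 0.04 in all genes. Among 0.5, 5 and 10 µM, 5 µM was the highest dose of T4 in 100 members (7.27% of all genes). For T5 it was the highest in 73 members (12.6% of all genes). The rule required a rise at a low dose and a fall by the highest dose. In a gene that changes smoothly with dose, this favours 5 µM over 10 µM and can favour it over 0.5 µM. The counts of members in this paragraph are therefore descriptions, since all genes were not chosen in this way.

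**Figure D2:**
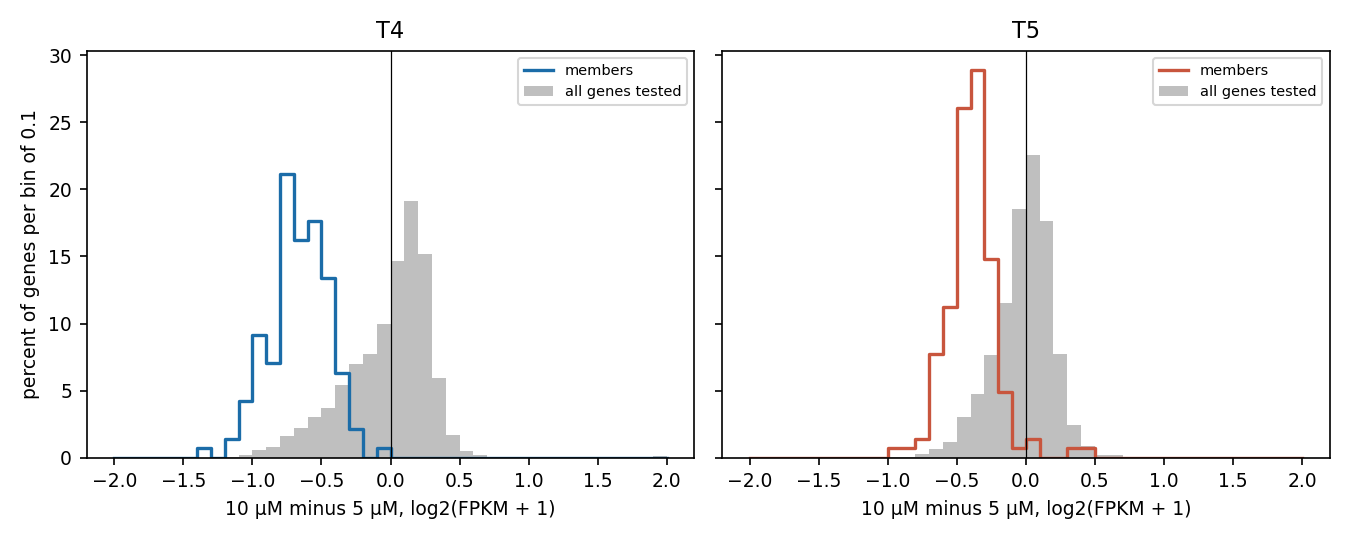
Share of genes by the change from 5 to 10 µM on the log2(FPKM + 1) scale, for T4 (left) and T5 (right), with all 10600 genes in grey and 142 members as a line (MIR663B left out; bins of 0.1, the outermost holding values beyond ±2). The members lie to the left of 0 almost throughout, with medians of -0.66 and -0.39, while all genes centre near 0. The rule that chose the members favours a fall across this range.

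A limma fit of this step, added after the values were seen, took the mean change over T4 and T5 and called 91 members lower and 0 higher, where 7.42% of all genes were lower and 0.925% higher. LBH, CLK1, CLP1, DACT1, HEXIM1, TMEM100, GSPT2 and GRPEL2 led the list, with LBH, a regulator of transcription in limb and heart development, at -0.99 (SE 0.09, adjusted p = 0.0328). The fit had 4 libraries and 1 residual degree of freedom, and 0 members passed without the filter on low values or without the mean-variance trend. Lower calls were also favoured by the rule, which required a fall across this range. With median centring the step called 137 members lower and 1 higher, and with quantile normalization 55 lower. In the fit as reported, 136 members were lower at an unadjusted p under 0.05, against 2095 of all 10600 genes.

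A straight line over 0.5, 5 and 10 µM, fitted jointly to T4 and T5, asks whether members were lower at the end of this range than at its start. It called 47 members falling and 4 rising, against 44.6% and 26.5% of all genes. Median centring turned this split to 12 falling and 40 rising, and quantile normalization to 17 and 16, so the net direction over the range depends on the scaling. Shares of all genes were not counted under these scalings, here or for the other fits, so such counts have no background beside them. The called falls of LBH, TOPORS, PEG3, POLR2A, CTR9, ZMYM5 and RNF103 passed under both scalings, while that of MRPL44, a mitochondrial ribosomal protein, was lost with median centring. LBH had the largest, with 25.7, 31.7, 17.1, 7.34 and 3.63 FPKM at 0.5, 2, 5, 10 and 20 µM T4 and 28.9, 24.5, 12.9, 6.60 and 2.19 with T5, against 14.000 in DMSO. It fell by 1.64 log2 units from 0.5 to 10 µM (SE 0.27, adjusted p = 0.00184, limma), and its T5 level was highest at 0.5 µM. GPER1, FLJ20021, MT1X and FOXF2 were the 4 that rose, and all 4 turned negative without the 0.5 µM libraries. That line rests on the 5 and 10 µM libraries alone. Its values, between -1.59 and -0.95, are their step extended to the range of 0.5 to 10 µM and are larger than the step itself.

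Over matched doses of 0.5, 5 and 10 µM, CPT and the mean of T4 and T5 could be set side by side without any library of the rule. CPT was higher in 47 members and lower in 39, against 36.9% and 26.1% of all genes tested, so the members divided about as all genes did. With median centring CPT was higher in 39 and lower in 50, and with quantile normalization higher in 36 and lower in 44. The largest excess with CPT was in PPP1R3C, a glycogen-targeting subunit of protein phosphatase 1, followed by SHISA2, CLP1, CDKN1A, FAM84B, TOB1, EFNB1 and GSPT2. The largest deficit was in NUP35, a nuclear pore protein, followed by MSL2, MCPH1, CEP152, RCL1, NFXL1, SOCS5 and NECAB1. SLC7A5P1, a pseudogene whose reads may belong to its parent gene, was passed over.

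CPT's own dose trend, from 0.5 to 20 µM, rose in 24 members and fell in 41, against 21.1% and 27.3% of all genes. Median centring gave 46 rising and 25 falling, quantile normalization 34 and 31. The 8 largest called falls were those of RCL1, PBDC1, CTR9, MSL2, C3orf52, AMD1, GMNN and NUP35, and the largest rises included those of SHISA2, TOB1, NKX2-5, FZD7, MSX2, BAMBI and C16orf91, and all of these kept their call under both scalings. Without the 10 µM CPT library, or on a linear dose axis, no member passed. SHISA2, an endoplasmic reticulum protein that restrains Wnt and FGF receptors, was at 5.88, 14.3, 18.5, 21.2 and 25.2 FPKM with rising CPT doses against 0.401 in DMSO, while T4 gave 1.80, 4.43, 3.07, 1.04 and 0.294 and T5 3.17, 6.02, 4.73, 2.99 and 0.81. Against DMSO, which the rule also used, 96 members were at least 0.6 log2 units higher with 2 µM CPT (18.1% of all genes) and 5 at least 1 lower (17.6% of all genes). With 20 µM CPT 54 were at least 1 log2 unit higher (6.12% of all genes) and 11 at least 1 lower (21.0% of all genes). From 5 to 20 µM CPT 4 members dropped by at least 0.5 log2 units, against 0.915% of all genes. At 0.5 µM CPT the members furthest above DMSO were SHISA2, EFNB1, HEXIM1, ATF3 and FAM46A, by 2.03 to 2.29 log2 units, and the furthest below were NUP35, MCPH1, NFXL1, CEP152 and ING3, by -0.996 to -0.458. The rule applied to CPT's own columns kept 50 genes, 4 of them members.

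**Figure D3:**
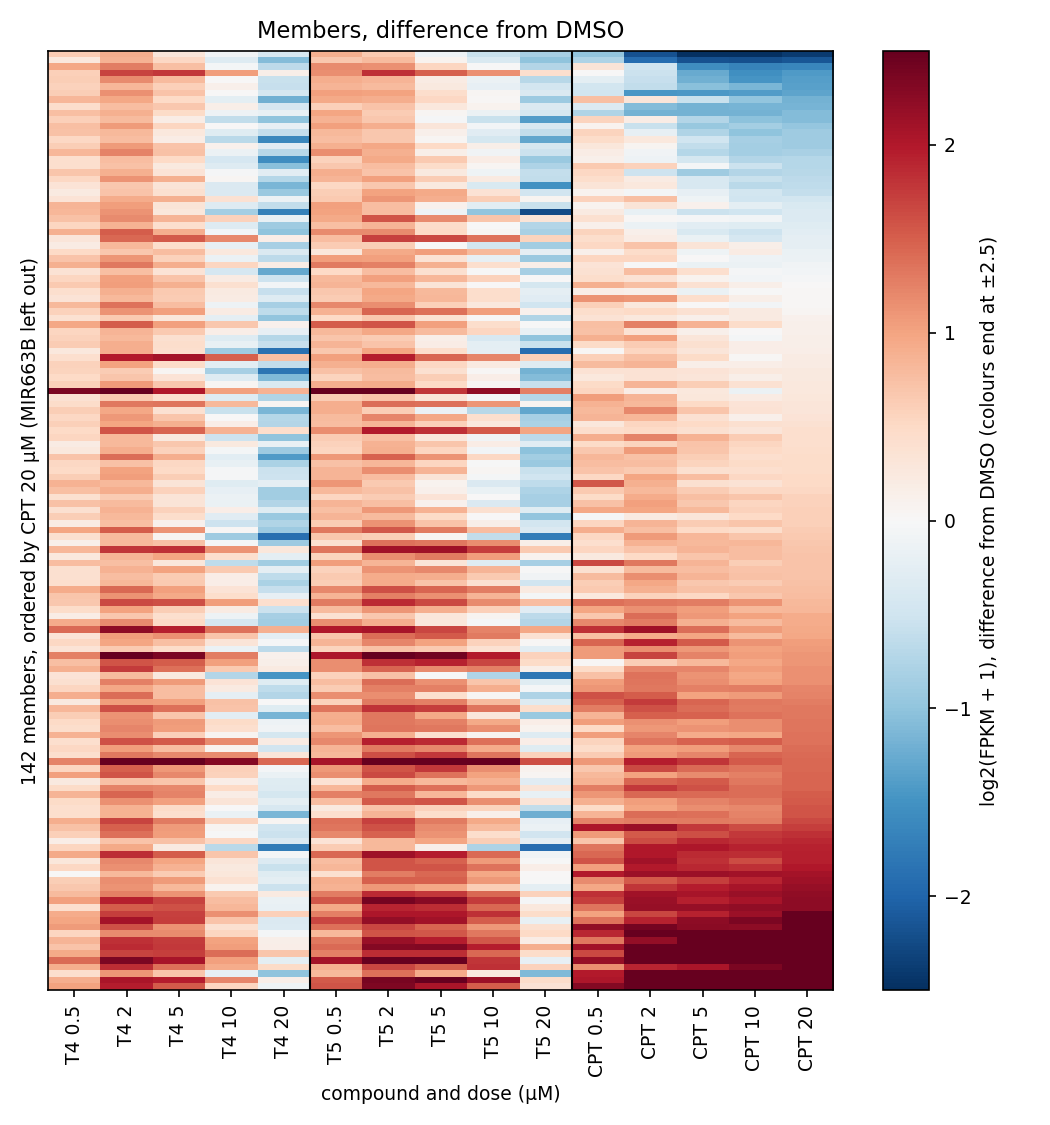
Difference from DMSO on the log2(FPKM + 1) scale (red higher, blue lower, colours end at ±2.5) of 142 members in the 15 treated libraries, ordered by the 20 µM CPT value. The T4 and T5 blocks go from red at 2 µM to pale or blue at 20 µM in nearly all rows, whereas the CPT block runs from blue rows at the top to red rows at the bottom; the order was set by one of the columns shown.

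Among the members were several parts of the RNA polymerase II machinery, grouped here by role after their values were seen. HEXIM1, the 7SK-bound inhibitor of P-TEFb, was at 8.44 FPKM in DMSO. With 0.5, 2, 5, 10 and 20 µM T4 it was at 24.1, 47.4, 38.5, 18.1 and 6.93 FPKM, and with T5 at 38.7, 61.0, 51.5, 31.7 and 7.23. CPT gave 41.9, 70.5, 66.4, 66.5 and 66.2 FPKM at the same doses. HEXIM1 was thus just below its DMSO level at 20 µM T4 or T5, while each CPT library from 2 µM up lay above every T4 and T5 library. CPT exceeded T4/T5 by 0.81 log2 units at matched doses (SE 0.18, adjusted p = 0.00886). HEXIM1 has 1 exon and overlaps an annotated gene on the opposite strand, and its reads cannot be assigned to a strand here.

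POLR2A, which encodes the largest subunit of RNA polymerase II, was at 13.6 FPKM in DMSO and at 24.1, 23.6, 16.8, 8.44 and 7.03 with rising T4 doses. Its T5 values were 29.1, 25.2, 17.3, 10.9 and 7.22 and its CPT values 45.1, 35.3, 25.2, 21.3 and 22.9 FPKM. With each compound 0.5 µM gave the highest value, and T4 and T5 but not CPT took it below DMSO. The fall over 0.5 to 10 µM T4/T5 was -1.23 log2 units (SE 0.21, adjusted p = 0.00209) and over CPT doses -1.09 (SE 0.16, adjusted p = 0.0109), and CPT stood 0.79 higher at matched doses (adjusted p = 0.00128).

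CTR9, a subunit of the PAF1 elongation complex, went from 14.7 FPKM in DMSO to 22.7, 26.1, 16.8, 9.30 and 6.86 along T4 doses and 27.5, 24.2, 14.4, 9.62 and 4.98 along T5 doses. With CPT it was at 22.0, 17.0, 8.47, 6.70 and 6.46 FPKM. It fell with all 3 compounds, by 1.20 log2 units with T4/T5 (adjusted p = 0.00152) and by 1.83 with CPT (adjusted p = 0.0109). EAF1, a partner of the ELL elongation factors, had a T4/T5 change of 0.13 (adjusted p = 0.563) and fell by 1.29 with CPT (adjusted p = 0.0257). MED18, a Mediator head subunit, reached 9.57, 22.9, 21.9, 16.9 and 8.06 FPKM with T4 and 17.0, 29.3, 27.6, 19.4 and 7.86 with T5 from 6.89 in DMSO. With CPT it climbed to 10.7, 18.9, 21.1, 21.5 and 19.2 FPKM and stayed there, with a trend of 0.81 log2 units (adjusted p = 0.0505). TAF5L, a subunit of SAGA-type complexes, fell by 0.86 with T4/T5 (adjusted p = 0.00452).

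A list of P-TEFb, its inhibitors and subunits of the super elongation complex, DSIF and NELF, which does not hold CTR9 or EAF1, had 19 measured genes, and HEXIM1 was the only one among the members. Of all 10600 genes 143 were members, so any list of this size, here or below, would hold few or none. Over 0.5 to 10 µM T4/T5, 13 of the 19 fell and 1 rose, against 44.6% and 26.5% of all genes, and with CPT 11 fell and 1 rose, against 27.3% and 21.1%. MEPCE, the 7SK capping enzyme, fell by 2.24 log2 units with T4/T5 and CCNT1, the cyclin of P-TEFb, by 1.24, while HEXIM1 had -0.08 (adjusted p = 0.846).

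RNA processing was represented by CLP1, NXF1, RBM15, CLK1, CHERP and DGCR8. CLP1, a subunit of cleavage factor II of the 3′ end machinery, stood at 7.40 FPKM in DMSO and at 11.2, 15.2, 8.78, 4.26 and 1.51 with T4. T5 gave 12.1, 13.8, 8.30, 3.91 and 1.25 and CPT 20.1, 32.5, 32.9, 30.9 and 30.8 FPKM. It ended at 20 µM T4 or T5 well below its DMSO level, whereas every CPT library was above every T4 and T5 library. The CPT excess at matched doses was 1.74 log2 units (SE 0.31, adjusted p = 0.00359). CLP1 fell by 1.12 over 0.5 to 10 µM T4/T5 (adjusted p = 0.00942), a call lost under both scalings, and its CPT trend of 0.53 had an adjusted p of 0.105.

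Of the 20 cleavage and polyadenylation factors on the list, 12 fell and 5 rose along T4/T5 doses (44.6% and 26.5% of all genes). Along CPT doses 9 fell and 3 rose (27.3% and 21.1% of all genes). The median T4/T5 change of the list was -0.56 log2 units against -0.20 for all genes. CSTF1, part of the complex that binds downstream of the cleavage site, fell by 2.32 and WDR33, which reads the polyadenylation signal, by 1.76 with T4/T5, and CPSF1 rose by 0.43. Between 5 and 10 µM 6 of the 20 fell, CLP1 among them, and none rose (7.42% and 0.925% of all genes). CLP1 was the only one of these factors that met the rule.

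NXF1, the main mRNA export receptor, was at 21.6 FPKM in DMSO, at 39.2, 67.8, 57.9, 36.1 and 17.2 with T4 and at 56.0, 78.7, 73.7, 56.4 and 29.7 with T5. In CPT libraries NXF1 was at 53.9, 67.5, 58.7, 54.4 and 55.1 FPKM, between its T4 and T5 values at 0.5, 5 and 10 µM. CPT and T4/T5 differed by 0.10 log2 units (95% interval -0.11 to 0.32, adjusted p = 0.342). RBM15, an adaptor of the m6A writer complex, rose from 3.91 FPKM in DMSO to 12.2, 22.2, 17.9, 11.6 and 8.14 with T4 and 18.8, 19.4, 14.5, 10.7 and 8.56 with T5. Its CPT values were 16.3, 20.4, 11.9, 9.22 and 8.50 FPKM, and unlike most members RBM15 stayed above DMSO in all 15 treated libraries. RBM15 fell by 1.07 along CPT doses (adjusted p = 0.038), a call lost with median centring.

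CLK1, a kinase of splicing factors, had 14.995, 23.9, 16.7, 6.14 and 2.67 FPKM with T4 and 20.04, 25.4, 17.1, 10.4 and 2.54 with T5 against 12.3 in DMSO. CPT kept CLK1 between 12.6 and 18.2 FPKM. Its 5 to 10 µM step was -0.99 log2 units (SE 0.15, adjusted p = 0.0343). Of 16 measured SR proteins and CLK kinases 9 fell and 3 rose along T4/T5 doses (44.6% and 26.5% of all genes), and 8 fell and 0 rose with CPT (27.3% and 21.1% of all genes). DGCR8, the partner of DROSHA in microRNA processing, fell with CPT by 0.94 (adjusted p = 0.0109), and CHERP, a splicing-associated protein, had -0.10 (adjusted p = 0.544).

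**Figure D4:**
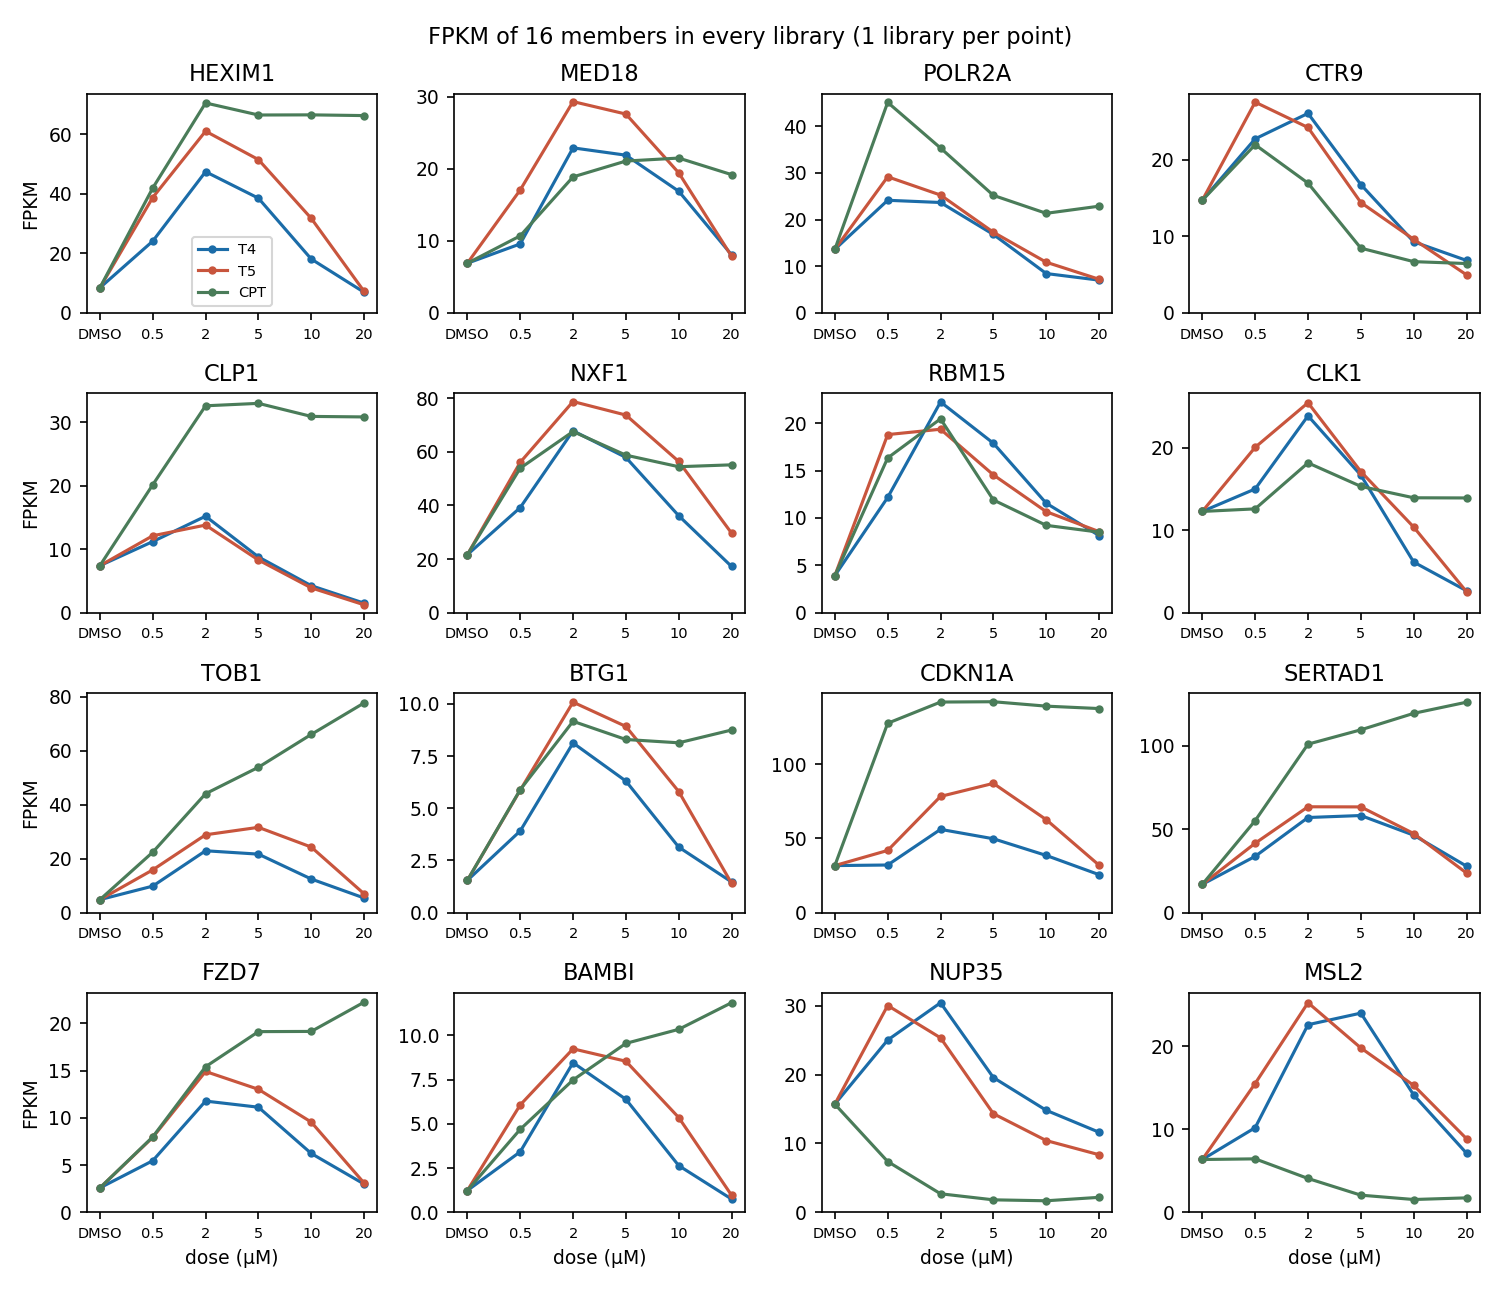
FPKM of 16 members in all 16 libraries, 1 library per point, with DMSO at the left and dose rising to the right; each axis starts at 0. T4 (blue) and T5 (red) peak at 0.5 to 5 µM in every panel, while CPT (green) stays high in genes such as HEXIM1 and CLP1, climbs in TOB1 and BAMBI, and falls below DMSO in NUP35 and MSL2.

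Genes of ribosome assembly and translation quality control formed a further group. RCL1, which acts in processing of the small-subunit rRNA, was at 7.93 FPKM in DMSO, at 16.5, 20.5, 14.0, 7.66 and 4.64 with T4 and at 19.1, 18.7, 11.9, 7.88 and 4.40 with T5. With rising CPT doses it was at 10.1, 5.36, 2.06, 1.80 and 1.90 FPKM, above DMSO at 0.5 µM and below it from 2 µM on. Its CPT trend of -2.15 log2 units (SE 0.33, adjusted p = 0.0109) was the largest fall among the members called, and it was 1.53 lower with CPT at matched doses (adjusted p = 0.00232). NMD3, the export adaptor of the large subunit, fell with T4/T5 by 0.51 (adjusted p = 0.0391, lost under both scalings) and with CPT by 1.32 (adjusted p = 0.0109). IMP3, a part of the small-subunit processome, was 0.88 higher with CPT at matched doses (adjusted p = 0.0026) and POLR1C, shared by RNA polymerases I and III, 0.22 higher (adjusted p = 0.0258, lost under both scalings). GSPT2, an intronless paralog of the release factor GSPT1 whose reads may be split with it, was 0.997 higher with CPT (adjusted p = 0.0125). Of 17 measured cytosolic ribosomal protein genes, none a member, 16 rose along T4/T5 doses and 0 fell (26.5% and 44.6% of all genes).

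Antiproliferative genes included TOB1 and BTG1, which recruit the CCR4-NOT deadenylase, and the p53 target CDKN1A, the inhibitor p21 of cyclin-dependent kinases. TOB1 went from 4.77 FPKM in DMSO to 9.79, 22.9, 21.7, 12.4 and 5.39 with T4 and 15.8, 28.8, 31.6, 24.3 and 6.94 with T5. With CPT it was at 22.4, 44.0, 53.9, 66.0 and 77.7 FPKM, above T4 and T5 at each dose and higher with each step of dose. It rose by 1.72 log2 units along CPT doses (SE 0.15, adjusted p = 0.0109). BTG1 had 3.91, 8.13, 6.30, 3.14 and 1.47 FPKM with T4, 5.86, 10.1, 8.92, 5.80 and 1.40 with T5 and 5.89, 9.16, 8.29, 8.13 and 8.75 with CPT, against 1.54 in DMSO. The CPT excess of BTG1, 0.39 (adjusted p = 0.0423), was lost under both scalings. Both genes overlap an annotated gene on the opposite strand.

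CDKN1A was at 31.6 FPKM in DMSO. T4 gave 32.0, 56.0, 49.7, 38.5 and 25.5 and T5 41.8, 78.2, 87.0, 62.6 and 31.9 FPKM. In CPT libraries it was at 128, 142, 142, 139 and 137 FPKM, each above every T4 and T5 library. The difference at matched doses was 1.45 log2 units (SE 0.13, adjusted p = 0.000379). Of 25 measured p53 targets 17 were higher with CPT at matched doses and 0 lower (36.9% and 26.1% of all genes). The list median was 1.002 against 0.09 for all genes. Only CDKN1A and PLK2 of that list met the rule. PLK2, a polo-like kinase, was at 34.4, 63.9, 64.3, 44.6 and 25.7 FPKM with T4 and 47.8, 67.6, 66.1, 54.96 and 26.2 with T5 from 24.9 in DMSO. It fell along CPT doses by 0.65 (adjusted p = 0.0121, lost with median centring).

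SERTAD1, a coactivator of E2F transcription, reached 33.7, 57.0, 58.2, 46.4 and 27.8 FPKM with T4 and 41.6, 63.5, 63.4, 47.4 and 23.7 with T5 from 16.9 in DMSO. With CPT it climbed through 55.2, 101, 109.7, 119.6 and 126 FPKM, a rise of 1.14 log2 units (adjusted p = 0.0128). GMNN, the inhibitor of origin licensing, and PCNA, the sliding clamp of DNA replication, went the other way with CPT. GMNN fell by 1.52 (adjusted p = 0.0109) and PCNA by 1.24 (adjusted p = 0.0111), PCNA from 218 FPKM at 0.5 µM to 102 at 20 µM. No gene of the 16 measured G1/S genes or the 20 measured G2/M genes was a member, where 143 of all 10600 genes were. Of these, 9 and 17 fell along T4/T5 doses, against 44.6% of all genes.

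Several members act in Wnt, Notch and BMP signalling. FZD7, a Wnt receptor encoded by 1 exon, had 5.46, 11.8, 11.1, 6.23 and 2.99 FPKM with T4 and 7.93, 14.9, 13.0, 9.55 and 3.10 with T5 against 2.59 in DMSO. CPT gave 7.98, 15.4, 19.1, 19.1 and 22.2 FPKM, rising by 1.32 log2 units (SE 0.21, adjusted p = 0.0111). FZD1, a second receptor of the family, ended at 20 µM T4 and T5 with 4.41 and 4.42 FPKM against 5.67 in DMSO, and its CPT trend was -0.03 (adjusted p = 0.895). AXIN2 and TLE3, a feedback inhibitor and a corepressor of the Wnt pathway, fell with T4/T5 by 0.81 (adjusted p = 0.0167) and 0.90 (adjusted p = 0.0183), both lost under both scalings. TLE3 also fell with CPT, by 1.004 (adjusted p = 0.0257). DACT1, an antagonist of the pathway, fell between 5 and 10 µM by 0.90 (adjusted p = 0.0344).

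BAMBI, a decoy receptor that dampens BMP and TGF-β signals, went from 1.23 FPKM in DMSO to 3.42, 8.46, 6.39, 2.64 and 0.75 with T4 and 6.07, 9.24, 8.54, 5.36 and 0.965 with T5. In CPT libraries it was at 4.69, 7.48, 9.55, 10.3 and 11.8 FPKM, a rise of 1.17 log2 units (adjusted p = 0.0109). ID4, an inhibitor of bHLH factors, rose with CPT by 0.87 (adjusted p = 0.0127) and had a T4/T5 change of -0.03 (adjusted p = 0.911). Of 13 measured BMP and TGF-β feedback genes 2 rose and 6 fell along T4/T5 doses (26.5% and 44.6% of all genes), and 4 rose and 4 fell with CPT (21.1% and 27.3% of all genes). JAG1, a Notch ligand, was the only member of 6 measured Notch and HES genes, at 11.3, 16.7, 12.5, 5.32 and 2.31 FPKM with T4 and 14.5, 17.3, 14.2, 9.54 and 3.80 with T5 from 5.19 in DMSO. CPT left JAG1 between 7.37 and 10.7 FPKM.

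Receptors and their regulators formed a smaller group. GPER1, a membrane receptor for oestrogen, showed the largest mean rise of a protein-coding member, from 0.916 FPKM in DMSO to 3.54, 11.5, 12.7, 8.36 and 4.19 with T4 and 6.95, 15.8, 15.5, 13.5 and 4.83 with T5. Its CPT values were 3.08, 6.46, 5.64, 4.58 and 4.16 FPKM, 0.93 log2 units below T4/T5 at matched doses (adjusted p = 0.00198). RGS2, which switches off G-protein signals, was at 6.61, 13.4, 11.1, 5.38 and 2.34 FPKM with T4 and 9.93, 18.7, 17.2, 11.6 and 2.65 with T5 from 2.75 in DMSO. RGS2 ended just under its DMSO level at 20 µM of both compounds, whereas CPT held it between 11.5 and 16.6 FPKM. S1PR1, a receptor for sphingosine-1-phosphate, was 0.46 log2 units lower with CPT at matched doses (adjusted p = 0.0121).

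Developmental transcription factors included NKX2-5, MSX2, FOXF2, SOX4, HOXC8, HOXC13, NR2F2, KLF5 and KLF11. NKX2-5, a cardiac homeobox factor, had 11.5, 23.2, 16.3, 11.7 and 8.34 FPKM with T4, 11.3, 20.2, 17.8, 22.6 and 9.05 with T5 and 14.0, 23.9, 26.6, 33.4 and 46.9 with CPT, against 5.70 in DMSO. It rose with CPT by 1.56 log2 units (SE 0.14, adjusted p = 0.0109), as did MSX2 by 1.17 (adjusted p = 0.0128). SOX4 was higher with T4 and T5 than with CPT from 0.5 to 10 µM and slightly lower at 20 µM, at 11.3, 23.1, 23.8, 14.2 and 7.51 FPKM with T4 and 16.5, 28.8, 29.1, 22.1 and 9.97 with T5 against 9.02, 10.4, 11.5, 10.9 and 10.2 with CPT and 5.95 in DMSO. The matched-dose difference of SOX4 was -0.77 (SE 0.12, adjusted p = 0.00198). Of 11 measured KLF factors 3 rose and 5 fell along T4/T5 doses, close to the 26.5% and 44.6% of all genes, and KLF5 and KLF11, the members, had -0.34 (adjusted p = 0.191) and -0.57 (adjusted p = 0.052). The zinc-finger genes ZBTB10, ZBTB17 and ZBTB18 share a name stem and not a pattern, with CPT trends of -1.13 (adjusted p = 0.0128), -0.14 (adjusted p = 0.678) and 0.51 (adjusted p = 0.0337).

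Stress genes were the last group of roles. ATF3, a factor induced by many stresses, was at 8.28, 19.6, 18.1, 10.6 and 5.32 FPKM with T4 and 14.1, 26.6, 27.0, 21.0 and 9.63 with T5 from 4.64 in DMSO. CPT gave 23.2, 34.9, 34.8, 32.7 and 36.1 FPKM, 0.91 log2 units above T4/T5 (adjusted p = 0.000724). ATF3 was the only member of 14 measured immediate early genes, of which 10 rose along T4/T5 doses and 1 fell (26.5% and 44.6% of all genes), with a median of 1.67. DDIT4, an inhibitor of mTORC1 signalling, was 0.86 higher with CPT (adjusted p = 0.000728), and CEBPB, a bZIP factor, 0.72 higher (adjusted p = 0.00287). Of the 14 integrated stress genes 11 were higher with CPT and 1 lower (36.9% and 26.1% of all genes). HMOX1, haem oxygenase, fell with T4/T5 by 0.93 (adjusted p = 0.00991, lost under both scalings). MT1X, a metallothionein with near-identical family copies, had 200.1, 373, 345, 340.1 and 184 FPKM with T4 and 261, 457, 508, 379.6 and 222 with T5 from 149 in DMSO, values that such copies may share.

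Single members came from further lists. CITED2, a CBP/p300-binding regulator, and ARRDC3, an α-arrestin, belonged with SERTAD1 and SOX4 to a list of 14 measured short regulatory genes, of which 8 rose and 3 fell along CPT doses (21.1% and 27.3% of all genes). CITED2 rose by 1.06 log2 units with CPT (adjusted p = 0.0109) and ARRDC3 by 0.62 (adjusted p = 0.0136). BCL10, an adaptor of NF-κB signalling, was 0.72 higher with CPT at matched doses (adjusted p = 0.00314). SOCS5, a cytokine signalling suppressor, was 1.37 lower (adjusted p = 0.00107). None of the measured genes of the DUSP and SPRY, MYC network, circadian clock, heat shock, replication-dependent histone and ubiquitin-conjugating lists met the rule. With 143 members among 10600 genes, lists this short would hold few or none in any case. Along T4/T5 doses 3 of 11 DUSP and SPRY genes rose and 6 fell, 2 of 9 MYC network genes rose and 4 fell, and 2 of 11 clock genes rose and 6 fell. Of 12 heat shock genes 4 rose and 4 fell, of 10 histone genes 4 rose and 2 fell, and of 14 ubiquitin genes 2 rose and 5 fell. Of all genes 26.5% rose and 44.6% fell on this line.

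With 10 µM CPT 106 of 143 members were above DMSO (43.5% of all genes), and 11 lay at least 1 log2 unit below it (21.3% of all genes). NUP35 was at 15.7 FPKM in DMSO, at 25.01, 30.4, 19.6, 14.8 and 11.6 with T4 and at 30.02, 25.3, 14.3, 10.4 and 8.36 with T5. CPT took it to 7.38, 2.69, 1.81, 1.68 and 2.18 FPKM, so that each CPT library lay below DMSO and below every T4 and T5 library. The matched-dose difference was -2.25 log2 units (SE 0.19, adjusted p = 0.000359). MSL2, a ubiquitin ligase of the MSL complex, had 10.2, 22.6, 24.0, 14.1 and 7.11 FPKM with T4, 15.5, 25.2, 19.8, 15.3 and 8.86 with T5 and 6.43, 4.07, 2.07, 1.54 and 1.74 with CPT, against 6.36 in DMSO. MSL2 differed by -2.13 (SE 0.37, adjusted p = 0.00332). MCPH1, a regulator of chromosome condensation, and CEP152, a scaffold of centriole duplication, differed by -1.86 (adjusted p = 0.00105) and -1.58 (adjusted p = 0.000557).

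These 4 genes span 37.3, 46.9, 241.9 and 72.8 kb, and transcript span went along with the CPT response among the members at large. The span of the main annotated transcript (GENCODE 29) had a median of 6.44 kb in the 47 members higher with CPT and of 23.3 kb in 38 of the 39 lower ones. In all genes called the medians were 13.3 and 81.8 kb. With 20 µM CPT the 80 members under 10 kb had a median of 1.14 log2 units above DMSO, with 72 of them higher. The 39 members of 10 to 30 kb had 0.43, with 29 higher. The 22 members over 30 kb had -0.84, with 6 higher. All genes tested showed the same order, with medians of 0.45, 0.04 and -0.67. Of all genes 43.4% were above DMSO at 20 µM CPT, a share that was not split by span. The rule chose the members against the same DMSO library, which favours values above it.

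Across the 141 members with an annotated structure, Spearman's rho between span and change was -0.52 for the T4/T5 trend and -0.45 for the CPT trend, against -0.23 and -0.13 across all genes. For CPT minus T4/T5 it was -0.36, against -0.55 across all genes. These are descriptions, since genes share the same libraries and are not replicates.

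**Figure D5:**
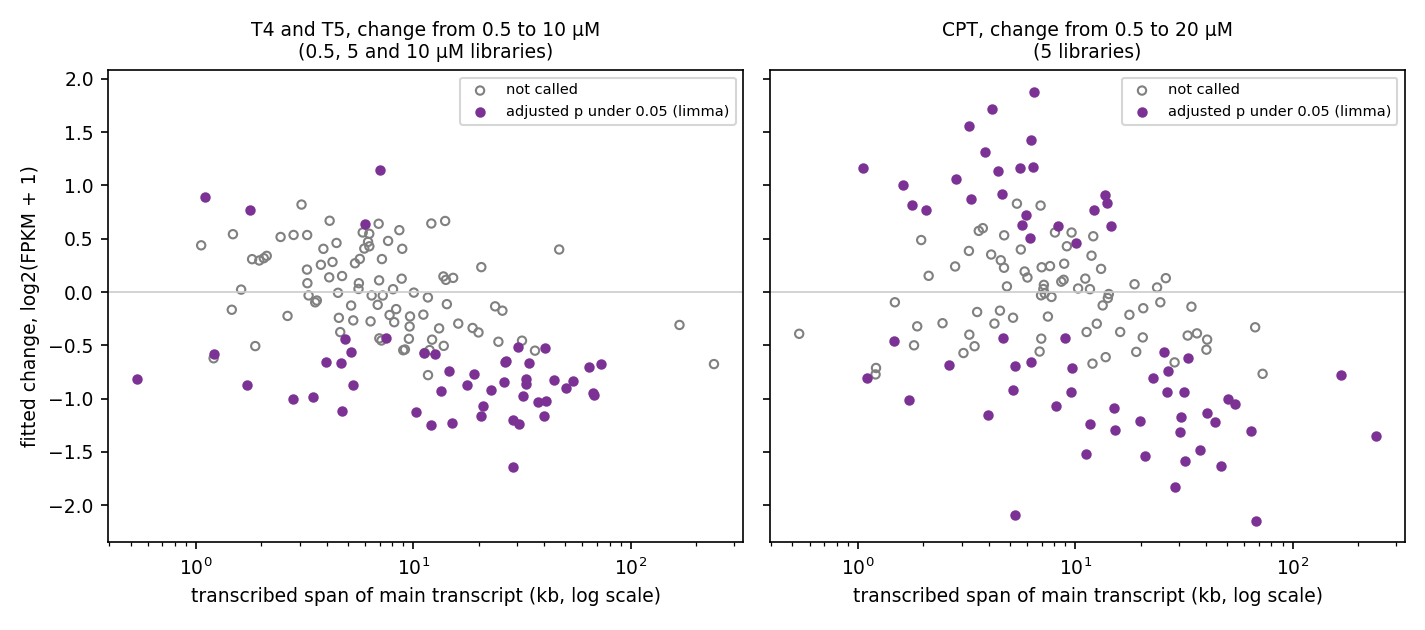
Fitted change on the log2(FPKM + 1) scale against span of the main transcript (log axis, kb) for the members with a span, with T4 and T5 from 0.5 to 10 µM at left and CPT from 0.5 to 20 µM at right; filled points passed limma at an adjusted p under 0.05, and MIR663B is left out. Long members lie mostly below 0 in both panels, and the CPT rises that passed are all among members shorter than 20 kb.

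The members were short genes with few exons. Their median span was 8.17 kb against 26.3 kb for all genes tested with a structure, and their median exon number 3 against 9. Single-exon genes made up 21 of 141 (14.9% against 3.17%), among them HEXIM1, FZD1, FZD7, SOX4, CEBPB and H2AFX. Genes of 1 or 2 exons made up 51 (36.2% against 7.70%), and 8 spanned over 50 kb (5.67% against 30.8%). The median length of the 3′ UTR was 1154 bases in the members and 1112 in all genes. The 349 genes with the rise and without the fall had a median span of 5.24 kb and 30.4% with 1 or 2 exons, so short span was not particular to the members. The 928 genes with the fall and without the rise had 23.0 kb and 11.8%. Overlap with an exon of a gene on the opposite strand occurred in 38 members (27.0% against 32.4%).

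T4 and T5 were compared in the libraries outside the rule at 0.5, 5 and 10 µM. T5 was above T4 at 0.5 µM in 139 of 143 members, by a median of 0.29 log2 units, against 30.8% of all genes. It was above at 0.5, 5 and 10 µM in 87 members, against 11.7% of all genes. The limma test of T4 minus T5 called 0 members higher and 0 lower, as it did for all genes (0.0% and 0.0%). At an unadjusted p under 0.05, 0 members were higher and 46 lower with T4, against 1277 and 310 of all 10600 genes. The members' median difference was -0.24, against 0.07 for all genes and -0.26 for the 349 genes that met the rise and not the fall, so the higher level with T5 was not particular to the members, and the smallest adjusted p of a member was 0.264. For ATF3 the difference was -0.72 with a 95% interval of -1.01 to -0.43, for CDKN1A -0.62 (-0.98 to -0.26), for NXF1 -0.49 (-0.74 to -0.24) and for CLP1 0.02 (-0.84 to 0.89). T5 had the higher mean in these libraries for 119 of 143 members (33.2% of all genes) without passing the adjusted threshold, and leaving out the CPT libraries also gave 0 calls.

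The difference between the CPT trend and the T4/T5 trend over 0.5 to 10 µM passed in 1 member, FLJ20021, and in 1.56% of all genes with a negative and 6.79% with a positive sign. At an unadjusted p under 0.05 (limma), 16 members had a positive and 10 a negative difference, against 1895 and 756 of all 10600 genes. FLJ20021, an uncharacterized locus of 2 exons, had 3.76, 9.45, 10.1, 7.83 and 3.34 FPKM with T4, 5.59, 11.6, 11.1, 8.80 and 4.65 with T5 and 4.19, 3.40, 2.45, 1.89 and 2.29 with CPT, against 2.85 in DMSO. Its T4 and T5 values rose to 2 or 5 µM and stayed above DMSO, while the CPT values sank below DMSO from 5 µM on. The difference of -1.72 log2 units (SE 0.39, adjusted p = 0.043) was lost without the filter on low values, at a mean FPKM of at least 5 and with quantile normalization.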

How the data were processed

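The authors deposited 1 matrix of FPKM values, 1 column per library and 1 row per gene, per the file headers. The submitters' processing notes name hg19, GRCh37, Cufflinks and GSNAP without roles, and how these were run is not given in the sources used here. There were 25270 genes after 2 inner header lines, 1 incomplete line and 220 identical repeats were left out. Depth is unknown in FPKM, so no counting interval is given; relative depth was read from the steps of values below 0.2 FPKM.

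Differences are on log2(FPKM + 1), which understates changes of low genes. Tests used limma 3.58.1 (R 4.3.3, lmFit and eBayes with a mean-variance trend, 2-sided) over the 10600 genes that averaged at least 1 FPKM, with Benjamini-Hochberg adjustment at 0.05, and were tested on simulated data. The rule used 5 libraries (DMSO, 2 and 20 µM T4 and T5), and the tests used the other 11: a line on log2 dose for T4 and T5 (6 libraries) or CPT (5), differences between compounds with dose as a block (9), and the difference of lines (9). The 5 to 10 µM step (4 libraries) was added after the values were seen. Alternatives changed the pseudocount (0.1), filter, scaling, variance trend, doses and libraries.

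The members, gene lists and tests were chosen with earlier results of these data known. Named genes were the 15 largest rises, the 5 nearest each side of the thresholds, up to 8 called members per direction and test, members on a list, a shared name stem, and the 5 highest and lowest at 0.5 µM CPT; pseudogenes were passed over, and a few members are not reported here by name. Further members are named by role, chosen after their values were seen. Spans and exons come from the principal transcript in GENCODE 29 (GRCh38, 141 of 143 members matched by symbol or synonym), promoters from RefSeq, and no coordinates were moved between builds. Other software was matplotlib 3.10.9, pandas 2.3.3 and numpy 2.4.6 under Python 3.11.15.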

Additional observations from a re-analysis of the deposited data

Results flagged for a closer look

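FLJ20021 stood out because its dose response differed between CPT and the pair T4 and T5 by a direct test. The CPT line minus the mean of the T4 and T5 lines over 0.5 to 10 µM was -1.72 log2 units (limma, SE 0.39, adjusted p = 0.043), with a T4/T5 trend of 0.89 and a CPT trend of -0.81 over 0.5 to 20 µM. The call was lost without the filter on low values, at a mean FPKM of at least 5 and with quantile normalization. Its T4/T5 trend turned negative without the 0.5 µM libraries.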

How the results depend on the processing

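No paired analysis was possible because each compound and dose had 1 library and no replicate numbers are shared. Members called by the T4/T5 line (47 falling, 4 rising) became 23 and 0 without the low-value filter, 30 falling with a mean FPKM of at least 5 (103 members tested), 12 and 40 with median centring, and 17 and 16 with quantile normalization. Without the 0.5 µM libraries they were 91 and 0. That is the same fit as the 5 to 10 µM step and not a separate result. Members called were 80 and 17 without 5 µM and 25 and 49 without 10 µM. With all 10 libraries, those of the rule included, they were 88 and 0. The rising count was 12 with T4 alone, 15 with T5 alone and 0 on linear dose. The line turned negative without the 0.5 µM libraries in FLJ20021 (-1.37), FOXF2 (-1.45), GPER1 (-1.59) and MT1X (-0.95). These values extend the 5 to 10 µM step to the range of 0.5 to 10 µM. With all 10 libraries the line was negative in FLJ20021 (-0.032), FOXF2 (-0.203) and MT1X (-0.027). It turned positive with median centring in FAM103A1 (0.055). CPT line counts (24 rising, 41 falling) became 22 falling without the filter, 46 and 25 with median centring, 13 rising without 0.5 µM, and 0 and 0 without 10 µM or on linear dose. CPT minus T4/T5 (47 higher, 39 lower) gave 25 lower at a mean FPKM of at least 5, 26 and 22 without 5 µM, and 27 higher without 10 µM. The difference of lines (1 negative) gave 2 with a pseudocount of 0.1 or median centring and 0 without the filter, at a mean FPKM of at least 5 or with quantile normalization; it could not be fitted without a dose. The 5 to 10 µM step (91 lower) gave 0 without the filter or the variance trend, 58 at a mean FPKM of at least 5, 137 with 1 higher with median centring, and 55 with quantile normalization. The rule kept 70 genes with thresholds of 1 and 1, 23 with 10 µM as the high dose and 70 with 5 µM as the low dose, and 206, 204 and 207 with median centring, quantile normalization and a pseudocount of 0.1, sharing 105, 109 and 143 with the members. Of 2584 single-gene values of called members under alternatives, without those of pseudogenes and members not reported here, 1833 kept direction and call, 743 kept direction only and 8 reversed. The cause of these changes was not tested, and shares of all genes were not counted for the fits under alternatives. A mean FPKM of at least 5 and fewer doses test fewer genes or libraries by construction.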
